A study of Mus musculus with 6 samples.

Results

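The genes described here were measured in the livers of tumor-bearing and sham mice. They are the tumor necrosis factor (TNF) superfamily ligands with Tnf or Tnfsf symbols and the receptors with Tnfrsf symbols. With them are the TNF receptor-associated factors (Traf) with 3 proteins named for binding Traf3. The genes with Tnfaip symbols are grouped as TNF-induced by their name alone. The rule that takes them uses the symbol and no measured value, and they comprise 46 of the 20140 genes in the count table: 9 ligands, 1 antisense gene, 19 receptors, 7 TRAF, 3 TRAF-interacting and 7 TNF-induced genes. Of these, 38 had enough counts to be tested. Tnf, Tnfrsf13c, Tnfrsf17, Tnfrsf18, Tnfrsf4, Tnfsf13, Tnfsf15 and Tnfsf8 did not pass the filter on low counts and are described by their counts.

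Poly-A RNA of whole mouse liver was sequenced on day 21, with 2 livers in each of 3 groups. The sham group received PBS in place of tumor cells and is labelled as control. The intra-C and intra-S groups carried CT26 cells, a mouse colorectal carcinoma line. The labels do not spell out the group names, and from the models of the study intra-C is read here as implantation in the cecum, with the liver taken in the premetastatic phase, and intra-S as injection into the spleen, with tumor in the liver. CT26 cells share the mouse genome, so that reads from tumor cells and from liver cells were counted together. The mice of both models were BALB/c, and mice of the tumor models in general were 6 to 10 weeks of age. The series describes the livers as biological replicates. The route of implantation and the state of the liver change together between intra-C and intra-S and cannot be told apart.

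Ligands of the TNF superfamily are mostly trimers on the cell surface that can be shed, and they cluster receptors on neighboring cells. Receptors with a death domain can recruit caspases, whereas most others bind TRAF proteins, which act as adaptors or ubiquitin ligases and lead to the kinases that release NF-kB. In the liver, Kupffer cells are a main source of TNF, and hepatocytes, which carry Tnfrsf1a, respond to it with an acute phase response or, when NF-kB is blocked, with death.

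Each liver had between 32838321 and 43368309 counts. Levels are given as CPM, the share of a gene in the counts of a library, scaled with TMM factors, always liver 1 before liver 2, and levels of different genes are compared as TPM, which account for gene length. Fold changes are on the log2 scale with their standard error (SE). A gene was called where the Benjamini-Hochberg adjusted p of edgeR's quasi-likelihood test was under 0.05 over 16370 genes. In whole liver, a lower level from fewer cells of a type and one from less RNA per cell cannot be told apart. The livers held hepatocyte RNA in quantity, with a summed 105297 to 181695 CPM over 7 hepatocyte markers.

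The members called were receptors and TNF-induced genes, all higher in tumor-bearing than in sham livers: 2 of 15 tested receptors and 2 of 7 TNF-induced genes in intra-C, and 5 and 3 of them in intra-S. Of the 5 tested ligands and the 7 TRAF genes 0 were called, and the difference between these roles was not tested. In intra-C against sham livers, 4 tested members were called higher (Tnfrsf1a, Tnfrsf21, Tnfaip8 and Tnfaip8l2), with a background of 4.92% of all tested genes called higher, and 0 were called lower, with a background of 2.38%. At an unadjusted p under 0.05 there were 9 higher (background 15.2%) and 5 lower (background 11.8%). In intra-S against sham livers, 8 were called higher (the same 4 and Tnfrsf9, Tnfrsf12a, Tnfrsf13b and Tnfaip3), with a background of 6.78%, and 0 lower, with a background of 3.95%. The unadjusted counts were 13 higher (background 17.2%) and 2 lower (background 13%). Both comparisons use the same sham livers. Groups did not overlap for 16 tested members higher (background 34.4%) and 8 lower (background 34%) in intra-C, and for 22 higher (background 30.4%) and 7 lower (background 30%) in intra-S. The median log2 fold change of the tested members was 0.29 in intra-C and 0.94 in intra-S, with 0.01 and 0.04 over all tested genes, which describes these genes and supports nothing further, because a gene could pass the filter through the group where it was high.

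The calls depended on which livers entered the fit. Without either sham liver no gene of the table, and so no member, was called in either comparison. Without either intra-C liver 0 members were called in intra-C, where 0.352% and 0.323% of all genes were called higher, and 2 in intra-S (Tnfrsf21 and Tnfaip8l2), where 2.13% and 1.97% were. Without either intra-S liver 14 were called in intra-C, 10 higher and 4 lower, where 14.5% and 14.3% of all genes tested in these fits were called higher and 12% lower in both. The 10 members gained were Tnfrsf1b, Tnfrsf11a, Tnfrsf12a, Tnfsf14, Tnfaip3 and Traf6, higher, and Tnfrsf14, Traf4, Traf5 and Traf3ip1, lower, in each of these fits and in a fit of only intra-C and sham (16.3% of all genes higher and 14.2% lower). In intra-S, 10 were called without liver 1, 9 higher (9.58% of all genes) and 1 lower (6.93%), and 13 without liver 2, 11 higher (17.3%) and 2 lower (15.4%). Calls over all genes thus moved in the same fits. The members gained were Tnfsf14 and, lower, Traf4 without liver 1, and Tnfrsf1b, Traf6 and Tnfaip1 and, lower, Tnfrsf14 and Tnfaip8l1 without liver 2.

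**Figure D1:**
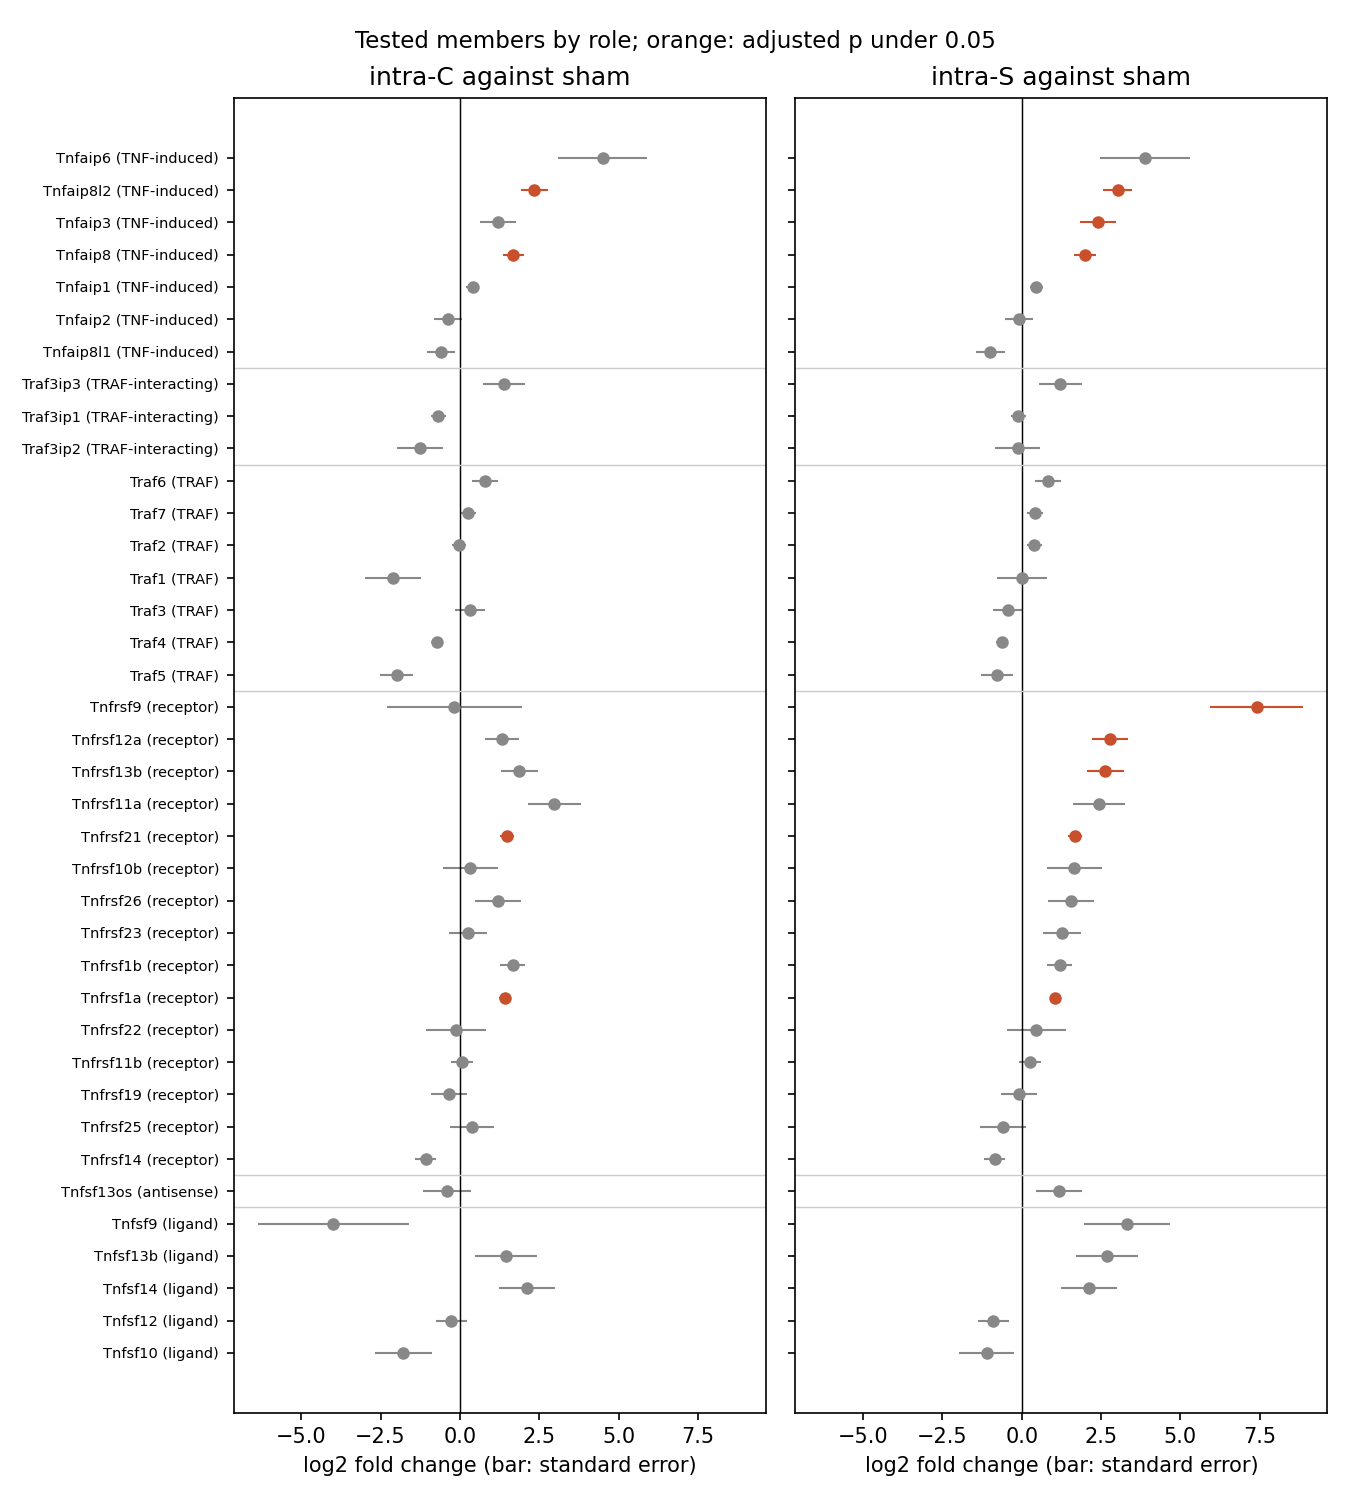
Log2 fold change (x axis) of the 38 tested members by role, intra-C against sham on the left and intra-S against sham on the right, with bars of 1 SE and orange points for an adjusted p under 0.05. The orange points are receptors and TNF-induced genes and all lie to the right of 0, and the fitted Tnfsf9 value in the left panel rests on 4 and 0 counts against 0 and 0.

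The promoter windows of 5 receptors and TNF-induced genes are shown. These are the receptors with the highest levels, and Tnfrsf9 and Tnfaip3, chosen for their high values in intra-S liver 1. Traf3ip2 and Traf6 were also higher in that liver than in intra-S liver 2, by 4.36 and 2.46 times, and are not shown. The windows are those of RefSeq on GRCm38.p6, the build also named mm10, from 250 bases before to 50 after each start, and 37 of the 46 genes were matched. They were searched on both strands for the NF-kB consensus, for the STAT motif TTCNNNGAA and for the AP-1 motif TGANTCA, and matches are in capitals. The Tnfrsf9 window is chr4:150927749-150928048 on the plus strand, with a start inside the gene (chr4:150920155-150946104). The Tnfaip3 window is chr10:19015361-19015660 on the minus strand, that of Tnfrsf1a chr6:125349473-125349772 on the plus strand, that of Tnfrsf1b chr4:145246821-145247120 on the minus strand and that of Tnfrsf12a chr17:23677400-23677699 on the minus strand.
Tnfrsf9: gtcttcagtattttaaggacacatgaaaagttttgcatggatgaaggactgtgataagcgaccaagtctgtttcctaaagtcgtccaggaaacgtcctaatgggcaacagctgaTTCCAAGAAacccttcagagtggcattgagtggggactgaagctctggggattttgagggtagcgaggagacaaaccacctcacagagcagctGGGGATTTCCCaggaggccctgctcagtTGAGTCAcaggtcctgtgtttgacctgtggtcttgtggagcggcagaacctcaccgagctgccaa
Tnfaip3: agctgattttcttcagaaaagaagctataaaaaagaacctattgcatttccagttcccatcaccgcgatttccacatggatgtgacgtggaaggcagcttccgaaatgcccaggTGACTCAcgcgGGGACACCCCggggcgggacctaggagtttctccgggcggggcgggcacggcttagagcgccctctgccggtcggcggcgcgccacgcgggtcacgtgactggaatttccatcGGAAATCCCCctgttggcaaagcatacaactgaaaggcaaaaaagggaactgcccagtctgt
Tnfrsf1a: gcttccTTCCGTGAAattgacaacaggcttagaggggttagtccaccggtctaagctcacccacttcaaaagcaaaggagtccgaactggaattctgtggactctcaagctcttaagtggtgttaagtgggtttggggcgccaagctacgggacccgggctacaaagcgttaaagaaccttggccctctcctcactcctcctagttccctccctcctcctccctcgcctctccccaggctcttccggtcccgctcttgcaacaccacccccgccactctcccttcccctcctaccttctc
Tnfrsf1b: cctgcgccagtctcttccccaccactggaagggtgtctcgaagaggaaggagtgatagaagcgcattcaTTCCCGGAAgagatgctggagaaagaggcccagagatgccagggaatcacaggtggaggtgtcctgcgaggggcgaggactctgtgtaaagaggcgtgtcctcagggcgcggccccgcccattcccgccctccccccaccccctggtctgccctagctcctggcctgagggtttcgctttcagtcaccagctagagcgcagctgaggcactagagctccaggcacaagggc
Tnfrsf12a: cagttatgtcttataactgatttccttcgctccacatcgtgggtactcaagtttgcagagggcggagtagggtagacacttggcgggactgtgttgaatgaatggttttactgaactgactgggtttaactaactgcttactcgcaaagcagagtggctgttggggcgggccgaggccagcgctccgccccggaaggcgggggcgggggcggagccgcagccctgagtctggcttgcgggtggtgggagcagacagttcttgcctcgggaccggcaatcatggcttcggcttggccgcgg

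The Tnfrsf9 window shown, whose start lies inside the gene, held matches to all 3 motifs. Its 2 overlapping NF-kB matches were 43 and 42 bases before that start, with an AP-1 match at 15 and a STAT match at 136 bases. The Tnfaip3 window held NF-kB matches at 125 and 12 bases and an AP-1 match at 136 bases before the start. The windows of both TNF receptors held a STAT match each, at 244 bases in Tnfrsf1a and at 181 bases in Tnfrsf1b. That of Tnfrsf12a held none of these letters, and neither did that of Traf6. Another Tnfrsf9 window, at the annotated start of the gene (chr4:150919905-150920204), held no match. A second Tnfaip3 window, inside that gene, held none either. The NF-kB motif was found in 4.51% of the 32851 windows searched and in 4 of the 37 matched members (Tnfrsf9, Tnfaip3, Tnfaip8l1 and Traf3). The STAT motif was found in 8.30% of windows and in 7 members, and the AP-1 motif in 7.81% of windows and in 6 members. Counted by gene, 5.14%, 9.55% and 8.97% of 27025 genes had a match. A match describes the letters of the window and is no measure of binding.

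Tnfrsf1a, the death domain receptor through which TNF acts on most cells, was at 36.4 and 39.4 CPM in sham, 97.8 and 105 CPM in intra-C and 81.3 and 76.9 CPM in intra-S livers. All 4 tumor-bearing livers lay above both sham livers, and both intra-C livers lay above both intra-S livers. The log2 fold change was 1.42 (SE 0.19, adjusted p = 0.0139), or 2.68-fold, in intra-C and 1.06 (SE 0.18, adjusted p = 0.0217), or 2.09-fold, in intra-S against sham. The intra-S call was lost in a fit of only the 2 groups (adjusted p = 0.0636) and with library sizes without TMM factors (adjusted p = 0.0511).

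Tnfrsf1b, the second TNF receptor, which has no death domain and binds Traf2, was at 33.6 and 19.7 CPM in sham, 99.3 and 69.1 CPM in intra-C and 77.4 and 44.3 CPM in intra-S livers. The groups did not overlap with sham either, but liver 1 was higher than liver 2 in each group. The differences did not pass the test, with a log2 fold change of 1.66 (SE 0.39, adjusted p = 0.0557) in intra-C and 1.19 (SE 0.39, adjusted p = 0.0985) in intra-S. DESeq2 called Tnfrsf1b in both comparisons (adjusted p = 0.00169 and 0.0328), as did the fit with the replicate number as a block, although the numbers do not mark pairs. In intra-C it was also called in a fit of only the 2 groups (adjusted p = 0.0084) and without the filter (adjusted p = 0.046). The ratio of Tnfrsf1b to Tnfrsf1a in TPM was 0.405 and 0.219 in sham, 0.445 and 0.288 in intra-C and 0.418 and 0.252 in intra-S livers. These ratios overlapped between the groups.

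Tnfrsf12a (Fn14), the receptor of the ligand Tnfsf12 (TWEAK) and a transcript known to rise in growing and injured liver, was at 7.36 and 5.50 CPM in sham, 13.7 and 18.4 CPM in intra-C and 68.2 and 20.6 CPM in intra-S livers. The 3 groups did not overlap, and intra-S liver 1 stood far above every other liver. The log2 fold change in intra-S against sham was 2.79 (SE 0.56, adjusted p = 0.0313). It was 1.68 without intra-S liver 1 and 3.41 without intra-S liver 2, and the call was lost in a fit of only the 2 groups (adjusted p = 0.0761) and on log2(TPM + 1) values (adjusted p = 0.0519). In intra-C against sham it was 1.32 (SE 0.54, adjusted p = 0.177), and in intra-S against intra-C 1.46 (SE 0.53, adjusted p = 0.345), so neither was called by the main test. A fit of only intra-C and sham called Tnfrsf12a higher (adjusted p = 0.00823).

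Tnfrsf21 (DR6), a death domain receptor, was at 7.04 and 6.77 CPM in sham, 18.2 and 20.1 CPM in intra-C and 25.2 and 19.3 CPM in intra-S livers. It separated the tumor-bearing from the sham livers with little spread within a group, while intra-C and intra-S overlapped. The log2 fold change was 1.47 (SE 0.22, adjusted p = 0.0189) in intra-C and 1.69 (SE 0.22, adjusted p = 0.0115) in intra-S, that is 2.77-fold and 3.22-fold.

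Tnfrsf9 (4-1BB), a costimulatory receptor of activated T and NK cells that TNF and other NF-kB signals also induce in other cells, had 4 and 0 counts in sham, 2 and 1 in intra-C and 534 and 68 in intra-S livers. In CPM this was 0.0985 and 0, then 0.0509 and 0.0309, then 15.6 and 1.67. It was thus near the limit of detection, which is 0.0679 to 0.0928 CPM for 3 counts, outside intra-S, and intra-S liver 1 had 9.33 times the level of liver 2. The fitted log2 fold change of 7.40 against sham (SE 1.47, adjusted p = 0.0307) depends on how the few sham counts are treated. The gene passed the filter only through intra-S, the group where it was high. With at least 10 counts required in every liver, Tnfrsf9 and Tnfrsf13b were not tested and 6 of 27 members were called in intra-S (7.22% of all genes were called higher). It was 1.63 on log2(TPM + 1) values, where it was no longer called (adjusted p = 0.121), as in a fit of only the 2 groups (adjusted p = 0.0761), 11.36 and 6.40 without sham liver 1 or 2, 5.03 without intra-S liver 1 and 8.26 without intra-S liver 2. Summed over 10 T and NK cell markers, of which 0 of the 9 tested were called and none was at 0 in both sham livers, the level was 4.61 and 3.82 CPM in sham, 4.68 and 5.94 CPM in intra-C and 8.60 and 13.1 CPM in intra-S livers. The part of these cells in the Tnfrsf9 result was not tested. The intra-S liver with the higher Tnfrsf9 was the one with the lower sum of these markers.

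Tnfrsf13b (TACI), a receptor of B cells and plasma cells for Tnfsf13 and Tnfsf13b, was at 0.296 and 0.181 CPM in sham, 0.865 and 0.897 CPM in intra-C and 1.22 and 1.77 CPM in intra-S livers. The 3 groups were in this order without overlap, at levels of 8 to 72 counts. In intra-S the log2 fold change was 2.64 (SE 0.57, adjusted p = 0.0381), and in intra-C 1.88 (SE 0.57, adjusted p = 0.0983), which DESeq2 called. The intra-S difference was no longer called with the replicate block (adjusted p = 0.063), in a fit of only the 2 groups, with library sizes without TMM factors or on log2(TPM + 1) values. Over 7 B cell and plasma cell markers, of which 0 were called in either comparison and none was at 0 in both sham livers, the summed level was 7.14 and 9.89 CPM in sham, 7.33 and 8.97 CPM in intra-C and 5.98 and 18.0 CPM in intra-S livers, and their part in the result was not tested. The gene shares 1390 bases with Usp22.

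**Figure D2:**
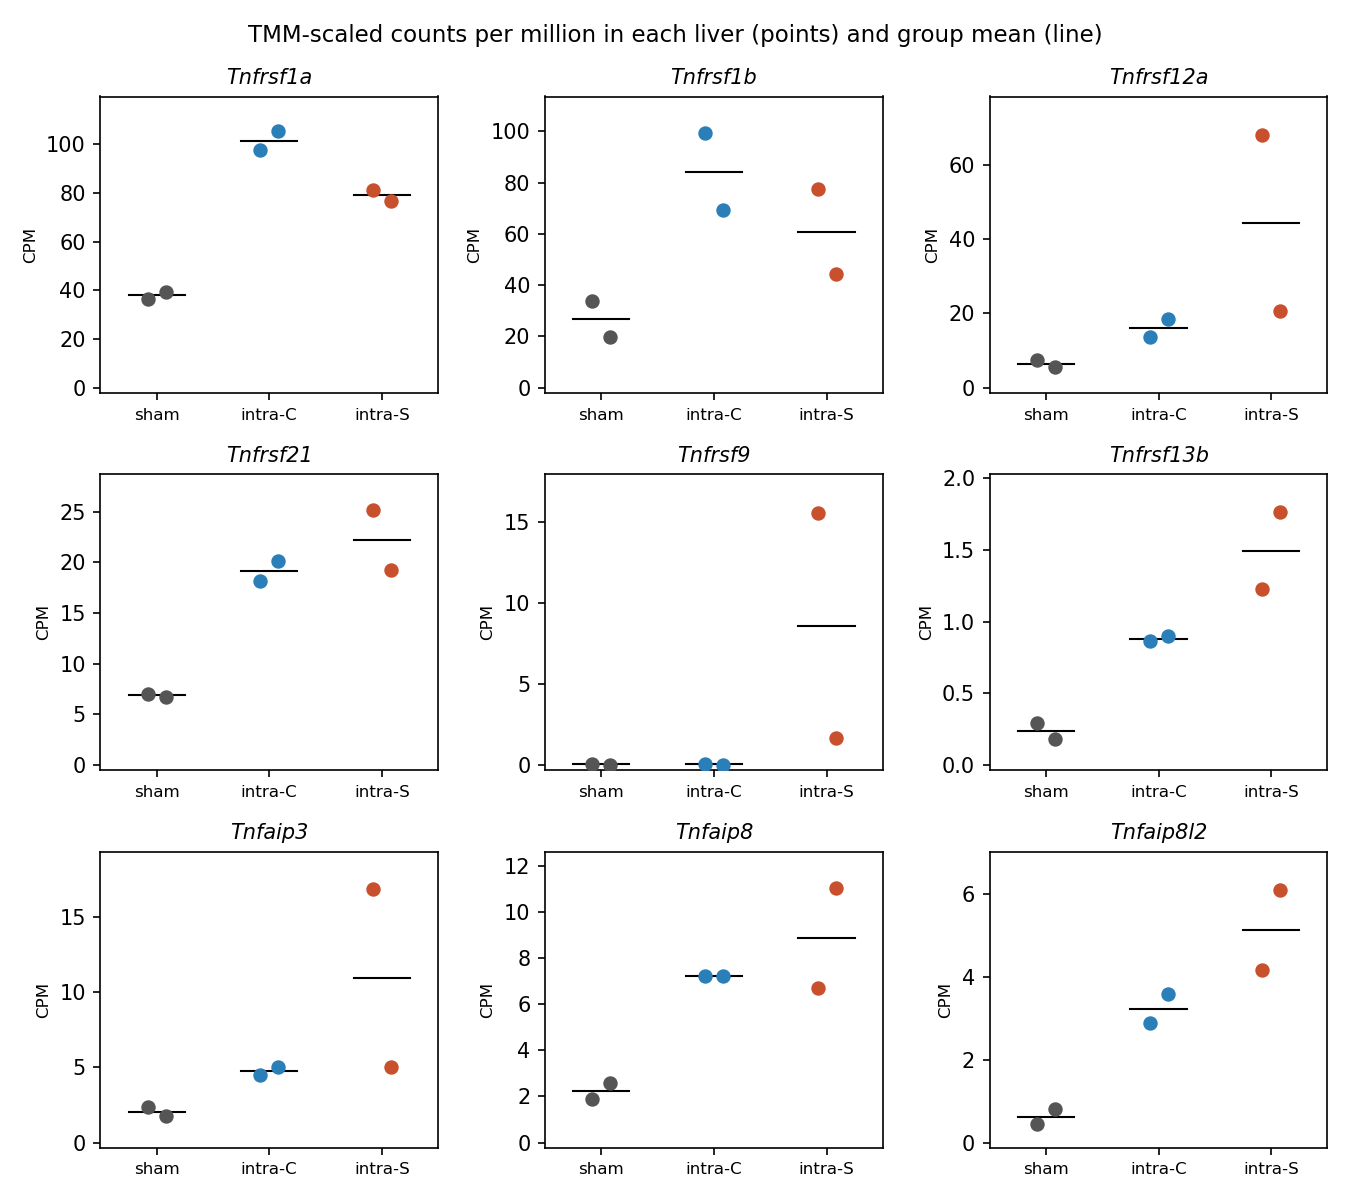
TMM-scaled CPM (y axis, a scale for each gene) of the 8 called members and Tnfrsf1b in each liver (points), with the group mean as a line. The tumor-bearing livers lie above both sham livers for Tnfrsf1a, Tnfrsf1b, Tnfrsf12a, Tnfrsf21, Tnfrsf13b, Tnfaip3, Tnfaip8 and Tnfaip8l2, while Tnfrsf9 is above 1 CPM in the intra-S livers alone.

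Among the remaining receptors, Tnfrsf11a (RANK), the receptor that drives osteoclast formation, was at 0.616 and 0.0905 CPM in sham, 2.32 and 3.25 CPM in intra-C and 1.37 and 2.40 CPM in intra-S livers. All tumor-bearing livers were above sham, but the sham livers differed 6.80-fold and the log2 fold change of 2.98 in intra-C (SE 0.83, adjusted p = 0.0821) and of 2.42 in intra-S (SE 0.82, adjusted p = 0.109) was not called. DESeq2 called Tnfrsf11a in both comparisons (adjusted p = 0.00411 and 0.0227), and the fit of only the 2 groups called it in intra-C (adjusted p = 0.0286). Its soluble decoy partner Tnfrsf11b (osteoprotegerin) was between 4.23 and 7.95 CPM in the 6 livers. Tnfrsf14 (HVEM), the receptor of Tnfsf14, was the one receptor below sham in every tumor-bearing liver, at 12.8 and 11.9 CPM in sham, 4.73 and 6.93 CPM in intra-C and 5.04 and 8.56 CPM in intra-S livers. Its log2 fold change of -1.08 (SE 0.34, adjusted p = 0.105) and -0.86 (SE 0.34, adjusted p = 0.147) did not pass the test, but it was called lower in intra-C by DESeq2 (adjusted p = 0.0413) and in the fit of only the 2 groups (adjusted p = 0.0159).

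Tnfrsf10b, the mouse death receptor for Tnfsf10 (TRAIL), was at 0.788 and 0.249 CPM in sham, 1.04 and 0.247 CPM in intra-C and 2.01 and 1.28 CPM in intra-S livers. Sham and intra-C overlapped, whereas both intra-S livers were higher than the other 4, and no comparison was called. The decoy receptors Tnfrsf22 and Tnfrsf23 and their neighbor Tnfrsf26 were between 0.233 and 2.35 CPM. Tnfrsf22 had 8 counts in intra-S liver 1 and 73 in liver 2. Tnfrsf19 was between 0.866 and 2.18 CPM and Tnfrsf25 (DR3) between 0.204 and 0.636 CPM, with none of these 5 called. Of the receptors under the filter, Tnfrsf18 (GITR) had 2 to 12 counts, Tnfrsf4 (OX40) 0 to 10 counts, Tnfrsf13c (the BAFF receptor) 0 to 11 counts and Tnfrsf17 (BCMA) 6 counts in intra-S liver 2 and 0 elsewhere. These costimulatory and B cell receptors were thus near the limit of detection in whole liver.

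Summed over the 19 receptors, the level was 88.4 and 79.5 TPM in sham, 172 and 189 TPM in intra-C and 246 and 151 TPM in intra-S livers. In TPM, Tnfrsf1a ranked first of the 46 genes in sham (mean 39.5 TPM), followed by Tnfrsf12a at 15.0, Traf4 at 14.3, Tnfaip1 at 13.3 and Tnfrsf1b at 12.2 TPM, the last 4 of which lie within each other's spread. In intra-C livers Tnfrsf1a (93.2 TPM) led Tnfrsf1b (33.7 TPM) and Tnfrsf12a (33.1 TPM), which overlapped. In intra-S livers Tnfrsf12a (82.7 TPM) had the highest mean, but at 125 and 40.4 TPM in the livers its range includes that of Tnfrsf1a at 66.7 and 67.6 TPM. Tnfrsf1a and Tnfrsf1b together made 60.5% and 63.0% of receptor TPM in sham, 72.8% and 68.0% in intra-C and 38.4% and 56.3% in intra-S livers. Tnfrsf12a made 19.4% and 16.1%, then 15.8% and 20.6%, then 50.8% and 26.9%. The intra-S livers therefore held the highest Tnfrsf12a shares and the lowest summed shares of the TNF receptors, with no test of these shares.

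**Figure D3:**
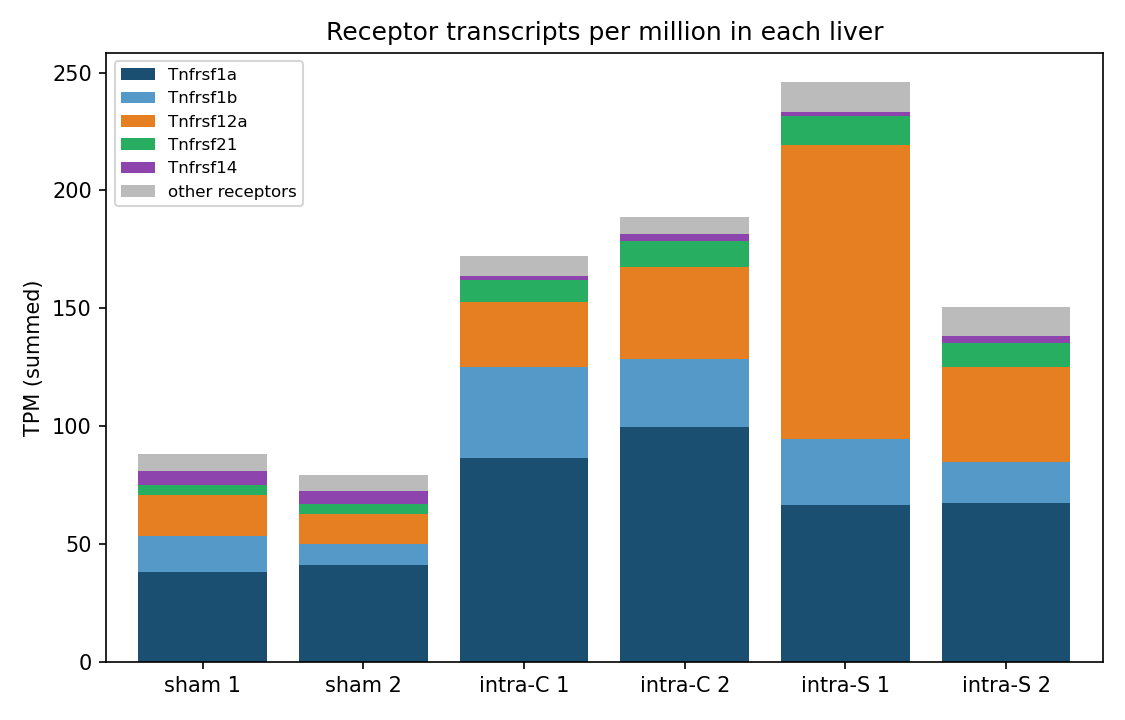
Summed TPM of the 19 receptors in each liver (y axis), divided into 5 named receptors and all others. Tnfrsf1a and Tnfrsf1b make most of the sham and intra-C bars and 56.3% of the bar of intra-S liver 2. Tnfrsf12a makes 26.9% of that bar and 50.8% of the bar of intra-S liver 1.

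Several marker lists of other cell types were higher in the same livers. All 12 neutrophil markers were called higher in both comparisons, with a summed 3.87 and 5.11 CPM in sham, 296 and 653 CPM in intra-C and 1110 and 439 CPM in intra-S livers, and Camp, Mpo and Elane at 0 in both sham livers. Of 10 monocyte and macrophage markers 6 were called higher in each comparison, with a summed 76.2 and 83.7 CPM in sham, 351 and 499 CPM in intra-C and 377 and 473 CPM in intra-S livers. Of 5 Kupffer cell markers, 5 and 4 were called higher, and their sum was 143 and 139 CPM in sham, 684 and 844 CPM in intra-C and 375 and 790 CPM in intra-S livers. Of 7 endothelial markers 4 were called higher in each comparison, with sums of 85.2 and 95.0, 237 and 255, and 345 and 209 CPM. No marker of these last 3 lists was at 0 in both sham livers. The part of any of these cell types in the receptor and TNF-induced results was not tested.

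Markers of dividing cells, stellate cells and fibroblasts, cholangiocytes, dendritic cells and exocrine pancreas were measured in the same way. Of 6 dividing cell markers, 2 were called higher in intra-C and 5 in intra-S, with sums of 15.0 and 9.01 CPM in sham, 27.6 and 35.4 CPM in intra-C and 80.8 and 69.8 CPM in intra-S livers. Stellate cell and fibroblast markers were called higher in 0 and 3 of 8 cases, with sums of 253 and 235 CPM in sham, 290 and 270.2 CPM in intra-C and 390.1 and 441 CPM in intra-S livers. Of 5 cholangiocyte markers, 0 and 1 (Sox9) were called higher, with sums of 15.2 and 19.5 CPM in sham, 65.4 and 98.5 CPM in intra-C and 23.6 and 185 CPM in intra-S livers. Of 6 dendritic cell markers 0 were called in either comparison, with sums between 6.06 and 14.7 CPM, and the 1 exocrine pancreas marker in the table was between 4.07 and 26.2 CPM with no call. None of these markers was at 0 in both sham livers. The part of these cell types in the results was not tested either.

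The group named TNF-induced holds the genes with Tnfaip symbols, including Tnfaip8l1 and Tnfaip8l2, which are paralogs of Tnfaip8. Their induction by TNF was not tested. Tnfaip3 (A20), the ubiquitin-editing enzyme that shuts off NF-kB signaling, was at 2.36 and 1.76 CPM in sham, 4.48 and 5.01 CPM in intra-C and 16.9 and 5.05 CPM in intra-S livers. The 3 groups did not overlap, but intra-S liver 2 was close to the intra-C livers. In intra-S against sham the log2 fold change was 2.40 (SE 0.57, adjusted p = 0.0473), with 1.30 without intra-S liver 1 and 3.03 without intra-S liver 2. The main test did not call the intra-C difference, whereas a fit of only intra-C and sham did. The call in intra-S was lost in a fit of only the 2 groups, with library sizes without TMM factors and on both log2(TPM) scales.

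Tnfaip8, which has been linked to cell survival, was at 1.90 and 2.58 CPM in sham, 7.20 and 7.24 CPM in intra-C and 6.71 and 11 CPM in intra-S livers. Its tumor-bearing livers all lay above sham and overlapped with each other. The log2 fold change was 1.69 (SE 0.34, adjusted p = 0.0383) in intra-C and 1.98 (SE 0.34, adjusted p = 0.0215) in intra-S, that is 3.22-fold and 3.95-fold. The intra-C call was lost with library sizes without TMM factors (adjusted p = 0.0652) and with limma on both log2(TPM) scales (adjusted p = 0.0775 and 0.0663), and the intra-S call in a fit of only the 2 groups (adjusted p = 0.0652) and on log2(TPM + 1) values (adjusted p = 0.0502).

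Tnfaip8l2 (TIPE2), a related protein of immune cells that restrains receptor signaling, was at 0.443 and 0.815 CPM in sham, 2.88 and 3.59 CPM in intra-C and 4.17 and 6.11 CPM in intra-S livers. The 3 groups were in this order without overlap. It rose by 2.35 on the log2 scale (SE 0.44, adjusted p = 0.0324) in intra-C and by 3.02 (SE 0.44, adjusted p = 0.0149) in intra-S, that is 5.10-fold and 8.11-fold. The intra-S call was lost in a fit of only the 2 groups (adjusted p = 0.0513).

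Their paralog Tnfaip8l1 was at 12.5 and 12.3 CPM in sham and lay between 4.26 and 11.1 CPM in the tumor-bearing livers, below sham in all 4, with no call. Tnfaip8l1 shares 7380 bases with Mydgf, which had 4699 counts over the livers against 2100 for Tnfaip8l1, so its values are uncertain. Tnfaip6 (TSG-6), a secreted protein that binds hyaluronan, had 2 and 0 counts in sham, 39 and 7 in intra-C and 19 and 10 in intra-S livers. It was above sham in every tumor-bearing liver at very low counts, and neither comparison was called (adjusted p = 0.103 and 0.125), whereas DESeq2 called intra-C (adjusted p = 0.0249). Tnfaip1 was between 20.6 and 34.3 CPM and Tnfaip2 between 4.38 and 11.6 CPM, also with no call.

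Among the ligands, Tnf itself had 6 and 1 counts in sham, 0 and 4 in intra-C and 8 and 15 in intra-S livers, that is at most 0.368 CPM. Both intra-S livers had more than every other liver, but at this depth no difference was detectable (adjusted p = 0.911 in intra-C and 0.527 in intra-S without the filter). A low level in whole liver does not measure secreted TNF.

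Tnfsf10 (TRAIL), a ligand that can kill cells through Tnfrsf10b, was at 1.95 and 4.41 CPM in sham, 0.407 and 1.45 CPM in intra-C and 0.525 and 2.40 CPM in intra-S livers. Intra-C lay below sham and intra-S overlapped with it, with no call. Liver 2 had more than liver 1 in each group, by 2.27 times in sham, 3.57 times in intra-C and 4.58 times in intra-S. Tnfsf12 (TWEAK), the ligand of Tnfrsf12a, was between 1.05 and 3.87 CPM, with both intra-S livers, at 1.05 and 2.21 CPM, below the lower sham liver at 2.22 CPM, liver 2 only just. It had the highest TPM of the ligands in every liver.

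Tnfsf13b (BAFF), the survival factor of B cells, was at 0.0493 and 0.158 CPM in sham, 0.127 and 0.464 CPM in intra-C and 0.816 and 0.564 CPM in intra-S livers. Both intra-S livers were above the other 4, and the log2 fold change of 2.68 against sham (SE 0.97, adjusted p = 0.126) was not called. Tnfsf14 (LIGHT), a ligand of Tnfrsf14, was at 0.296 and 0.226 CPM in sham, 0.916 and 1.36 CPM in intra-C and 0.350 and 1.94 CPM in intra-S livers. It lay above sham in all tumor-bearing livers, but intra-S liver 1, with 12 counts, was close to sham, and no comparison was called. Without intra-S liver 1 Tnfsf14 was called higher in intra-S, with a log2 fold change of 2.88, and without intra-S liver 2 it was 0.42 and not called.

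Tnfsf9, the ligand of Tnfrsf9, had 4 and 0 counts in sham, 0 and 0 in intra-C and 19 and 19 in intra-S livers. It was at least 6.03-fold higher in intra-S than in intra-C livers, with a floor of 3 counts for each intra-C liver, and the difference was not called (adjusted p = 0.301). Tnfsf15 (TL1A), the ligand of Tnfrsf25, had 8 and 19 counts in sham and 0 in all 4 tumor-bearing livers. This is at least 3.71-fold lower in intra-C and at least 3.89-fold lower in intra-S, with the same floor, and neither difference passed the test that kept all genes (adjusted p = 0.184 and 0.156). Tnfsf13 (APRIL) had 3 to 9 counts and Tnfsf8 (the CD30 ligand) 0 to 8 counts. The antisense gene Tnfsf13os had 6 to 33 counts and shares 4902 bases with Tnfsf12 and 2978 with Tnfsf13, so that without strand their reads cannot be told apart. Ligand transcripts summed to between 3.38 and 7.83 TPM, far below the receptors in every liver.

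No TRAF gene was called by the main test in any comparison, and Traf1, Traf4 and Traf5 lay below both sham livers in both intra-C livers. The background of genes lower in intra-C without overlap was 34%. At an unadjusted p under 0.05 these 3 were lower in intra-C (background 11.8%) and 1, Traf4, in intra-S (background 13%). Traf4, which is expressed mainly in epithelial cells, was at 21.7 and 19.8 CPM in sham, 12.2 and 12.8 CPM in intra-C and 14.3 and 12.6 CPM in intra-S livers. It was lower in all 4 tumor-bearing livers, with a log2 fold change of -0.73 (SE 0.19, adjusted p = 0.0744) in intra-C and -0.63 (SE 0.19, adjusted p = 0.0879) in intra-S. DESeq2, library sizes without TMM factors and both log2(TPM) scales called it lower in both comparisons. Library sizes alone move the median of all genes by -0.25 in intra-C and -0.23 in intra-S. With them 3.48% of all genes were called higher and 4.89% lower in intra-C, and 5.12% and 6.82% in intra-S. The log2(TPM + 1) values move this median by -0.098 and -0.152, and the log2(TPM + 0.1) values by -0.165 and -0.257. These 3 settings thus all shift genes downward.

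Traf5, an adaptor of costimulatory receptors, was at 4.38 and 3.51 CPM in sham, 0.535 and 1.45 CPM in intra-C and 2.59 and 1.99 CPM in intra-S livers. The 3 groups did not overlap, with intra-C lowest, and the log2 fold change in intra-C of -2.0 (SE 0.53, adjusted p = 0.0731) was not called. It was called lower in intra-C by DESeq2 (adjusted p = 0.00577), in a fit of only the 2 groups (adjusted p = 0.0262) and with limma on log2(TPM + 1) (adjusted p = 0.0381). Traf5 shares 2709 bases with Gstp-ps, which had 4130 counts over the 6 livers against 571 for Traf5, so its values are uncertain.

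Traf1, which NF-kB induces and which pairs with Traf2, was at 0.566 and 0.453 CPM in sham, 0.0509 and 0.186 CPM in intra-C and 0.350 and 0.662 CPM in intra-S livers. It was lowest in intra-C, with 2 and 6 counts, and its log2 fold change of -2.11 (SE 0.88, adjusted p = 0.184) was not called. Traf1 shares 10518 bases with Gm52552, which had 70 counts over the livers against 90 for Traf1, so its values are uncertain. Traf2, the ubiquitin ligase adaptor of Tnfrsf1b and Tnfrsf1a, was at 9.53 and 8.49 CPM in sham, 7.92 and 9.77 CPM in intra-C and 12.4 and 11.4 CPM in intra-S livers. Both intra-S livers were above the other 4, whereas the intra-C livers lay on either side of the sham livers, and no comparison was called.

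Traf3, which restrains the alternative NF-kB pathway, was at 10.2 and 6.09 CPM in sham, 8.37 and 11.9 CPM in intra-C and 3.44 and 8.53 CPM in intra-S livers, with overlap between all groups. Traf6, the adaptor of Tnfrsf11a and of interleukin-1 and Toll-like receptors, was at 11.3 and 12.4 CPM in sham, 22.5 and 18.4 CPM in intra-C and 29.8 and 12.1 CPM in intra-S livers. Intra-C lay above sham, whereas intra-S liver 2 was within the sham range. Traf7 was between 6.25 and 10.8 CPM. Of the Traf3-binding proteins, Traf3ip1, which works in cilia, was at 10.5 and 11 CPM in sham, 5.93 and 7.42 CPM in intra-C and 9.45 and 10.4 CPM in intra-S livers. Its log2 fold change of -0.68 in intra-C (SE 0.23, adjusted p = 0.124) was not called, but a fit of only intra-C and sham called it lower (adjusted p = 0.0404). Traf3ip2 (Act1), the adaptor of interleukin-17 receptors, had 20 to 99 counts and Traf3ip3 14 to 53 counts, with no call.

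Other genes of the pathway, from lists written for this comparison with 57 genes, of which 52 were in the table and tested, were called higher in 6 cases in intra-C (11.5%, background 4.92%) and in 4 in intra-S (7.69%, background 6.78%), and lower in 0 cases in both. The unadjusted counts were 15 higher (background 15.2%) and 2 lower (background 11.8%) in intra-C, and 18 (background 17.2%) and 1 (background 13%) in intra-S. Their median log2 fold change was 0.36 and 0.52, with 0.01 and 0.04 over all tested genes. Birc3 (cIAP2), a ubiquitin ligase recruited by Traf2 and 1 of 20 tested genes of the ubiquitin and kinase relay, was at 6.75 and 7.44 CPM in sham, 14.7 and 17.6 CPM in intra-C and 17.0 and 18.4 CPM in intra-S livers. It was called in both comparisons (adjusted p = 0.0291 and 0.0175), as were the NF-kB subunit Rel, with log2 fold changes of 1.47 (adjusted p = 0.0319) and 1.15 (adjusted p = 0.0461), and the ligand-shedding protease Adam10, with 0.94 (adjusted p = 0.0433) and 1.18 (adjusted p = 0.0206).

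The other calls of these lists were found in 1 comparison each. Ripk1, the death domain kinase of the TNF receptor complex, rose by 1.19 (adjusted p = 0.0313) in intra-C. The NF-kB cofactor Bcl3 rose by 2.07 (adjusted p = 0.0293) and Adam17, the protease that sheds TNF and its receptors, by 0.98 (adjusted p = 0.0368) in intra-C. Relt, a receptor of the superfamily without a Tnfrsf symbol, rose by 3.36 (adjusted p = 0.0482) in intra-S. The NF-kB (11 tested genes), shedding (4 tested genes) and ubiquitin and kinase relay (20 tested genes) lists had calls in both comparisons. Of the 3 tested ligands with other names (Ltb, Fasl and Eda) 0 were called, with a background of 4.92% and 6.78% called higher. Nfkbia, the NF-kB inhibitor that its target induces, was at 43.5 and 24.5 CPM in sham and lay between 32.7 and 37.1 CPM in the tumor-bearing livers, inside the sham range.

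The direct comparison of intra-S with intra-C livers called 0 members in either direction, with a background of 0% in both. At an unadjusted p under 0.05, 4 were higher (Tnfrsf9, Tnfsf9, Tnfrsf12a and Traf3ip1; background 6.99%) and 0 lower (background 6.41%). Tnfrsf9 and Tnfsf9 passed the filter only through intra-S, where they were high, so that their place in this count was set in part by the filter. The smallest adjusted p of a member was 0.285, for Tnfrsf9. DESeq2 called 1 member, Tnfrsf9, where it called 1.47% of all genes higher and 1.73% lower, and limma on the TPM values 0. Without intra-S liver 2, edgeR called Tnfrsf9, Tnfrsf12a, Tnfaip3 and Traf3ip2 higher and Traf3 lower, where 7.53% of all genes were called higher and 9.02% lower, whereas without intra-S liver 1 it called 0 members, and 0.137% of all genes higher and 0.176% lower. In groups that did not overlap, 14 tested members were higher in intra-S (background 21.9%) and 3 lower (background 21.5%). The levels of Tnfrsf12a and Tnfaip3 that set intra-S apart were thus mostly those of liver 1. Tnfrsf9 was highest in liver 1, but liver 2, with 68 counts, also lay far above the sham and intra-C livers, with at most 4.

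Both intra-S livers differed from each other more than the livers of the other groups did. Of 31 members with a mean over 1 CPM in intra-S, 13 differed over 2-fold between its livers, compared with 5 of 24 in intra-C and 1 of 22 in sham. Over all genes above that level the shares were 21.5% in intra-S, 5.84% in intra-C and 2.32% in sham. Tnfrsf9, Tnfaip3, Tnfrsf12a, Traf6 and Traf3ip2 were higher in liver 1, by 9.33, 3.34, 3.31, 2.46 and 4.36 times. Tnfrsf22, Tnfsf14, Tnfsf10 and Traf3 were higher in liver 2, by 7.68, 5.54, 4.58 and 2.48 times. Tnfrsf1a differed by 1.06 times and Tnfrsf21 by 1.31 times. Liver 1 was also the liver with the higher sums of neutrophil, endothelial and hepatocyte markers. Liver 2 had the higher sums of T and NK cell, B cell, Kupffer cell and cholangiocyte markers, the last at 185 against 23.6 CPM. The part of these cell types in the differences was not tested.

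**Figure D4:**
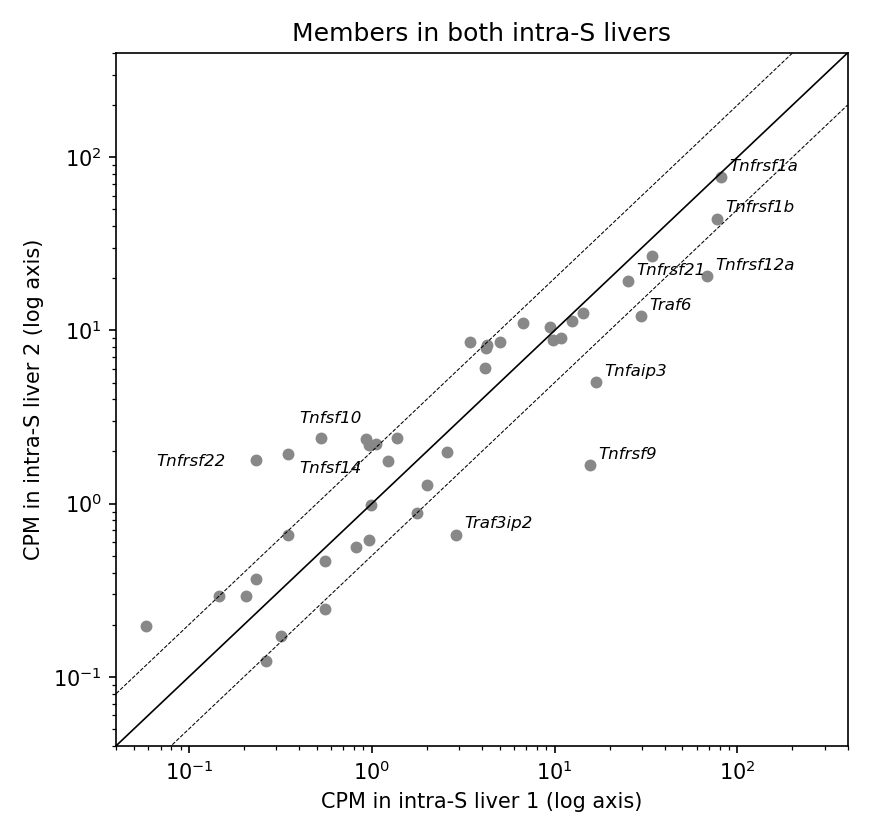
TMM-scaled CPM of 43 members in intra-S liver 1 (x axis) and liver 2 (y axis), both on log axes, with a line for equal levels and dashed lines for 2-fold differences, where 3 members with 0 counts in either liver are left out. Tnfrsf9 lies farthest below the line and Tnfrsf22 farthest above it.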

How the data were processed

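The authors aligned the reads of the 6 livers to mm10 with HISAT2 2.1.0 and counted uniquely mapped exon reads with featureCounts (Subread 2.0.6), per the submitters' processing notes and the study's methods. They deposited raw counts per gene and liver, and TPM values which the authors calculated from counts and gene lengths. The annotation and the use of strand are not given in the sources used here, and 15 members overlap another listed gene, so that part of their reads may be uncertain. Each column was assigned to its liver from the column name. The table lists no gene with fewer than 6 counts over the livers.

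The deposited counts were tested with edgeR 4.0.16 in R 4.3.3 (TMM, filterByExpr with a count minimum of 10, glmQLFit and glmQLFTest in 1 fit over the 6 livers, Benjamini-Hochberg over 16370 genes, threshold 0.05). SE is the log2 fold change divided by the square root of F. Alternatives were DESeq2 1.42.0, limma 3.58.1 on log2(TPM + 1) and log2(TPM + 0.1), testing every gene or those with 10 or more counts in each of the 6 livers, a fit restricted to the 2 groups of a comparison, a block for the replicate number, unscaled library sizes, TMM factors made with the 100 most abundant genes removed, and a further limit of 1 on the absolute log2 fold change. Each liver was also left out, where the lone liver of a group is assumed to vary like the others. As groups hold 2 livers, permuting labels cannot give a p under 0.05. On counts simulated for intra-C against sham (15902 genes, 200 changed), the procedure recovered 60% of 4-fold and 85% of 16-fold changes. The simulation gave every group the same spread, unlike these livers, and held no change under 4-fold. Its shares therefore need not hold for these data.

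The text names every called member, and, called or not, Tnf, Tnfrsf1a, Tnfrsf1b, Tnfaip3, Tnfsf10, Tnfrsf10b, Tnfsf13b and Traf1 to Traf6, with up to 4 called genes of each pathway list. Further members and Nfkbia were named after their values were seen. The members and the pathway and marker lists were chosen with earlier results of these data known. Promoter windows were read and searched with Python 3.11.15. The limit of detection is 3 counts and covers counting error only. The result of 1 marker list is not reported here.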

Additional observations from a re-analysis of the deposited data

How the results depend on the processing

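The members with an unadjusted p under 0.05 kept their direction under each alternative that tested them (Tnfaip6, Tnfrsf11a, Tnfrsf13b, Tnfrsf9, Tnfsf13b, Tnfsf9 and Traf1 were not tested in 1 or 2 of the 15), but the number of calls depended on the setting. In intra-C against sham (4 higher, 0 lower), DESeq2 called 8 higher and 3 lower (10.4% and 6.78% of all genes), a fit of only these 2 groups 10 and 4 (16.3% and 14.2%), and leaving out 1 liver gave 0 to 10 higher and 0 to 4 lower. In intra-S against sham (8 higher, 0 lower), the fit of only these 2 groups called 1 higher (1.75%), library size without TMM 5 (5.12%), limma on log2(TPM + 1) 4 (4.18%) and DESeq2 10 (12.6%), and leaving out 1 liver gave 0 to 11 higher and 0 to 2 lower. Members called lower came to 1 in both comparisons with library size without TMM (4.89% and 6.82% of all genes lower) and with limma on log2(TPM + 0.1) (5.44% and 9.02%), to 2 and 1 with limma on log2(TPM + 1) (5.47% and 9.49%), and to 1 in intra-S with DESeq2 (8.95%). In intra-S against intra-C (0 and 0), DESeq2 called 1 higher (1.47%), and leaving out 1 liver gave 0 to 4 higher and 0 to 1 lower. The fit of 2 groups and the fits without a liver rest on fewer livers. Otherwise the cause was not tested. With the replicate block 5 members were called higher in intra-C (4.11% of all genes), with Tnfrsf1b gained, and 8 in intra-S (5.83%), with Tnfrsf1b gained and Tnfrsf13b lost, and 0 between them. Deviations of same-numbered livers correlated at -0.03 (sham and intra-C), 0.08 (sham and intra-S) and 0.04 (intra-C and intra-S). Over all genes no pairing by number was thus seen, and a pairing that affects only some genes was not tested. The 8 members under the filter had too few counts for the main test.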

Other observations

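Receptors of the superfamily lie in clusters, which were set beside the calls. On chromosome 4 (GRCm38.p6), Tnfrsf1b, Tnfrsf9, Tnfrsf25, Tnfrsf14, Tnfrsf4 and Tnfrsf18 lie between 145212368 and 156028894. Of these 6, Tnfrsf9 alone was called, in intra-S against sham, while Tnfrsf14 was lower than sham in every tumor-bearing liver without passing the test and Tnfrsf4 and Tnfrsf18 had too few counts. On chromosome 7, the paralogs Tnfrsf26, Tnfrsf22 and Tnfrsf23 lie between 143607685 and 143686436, and none was called.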
